A study of Mus musculus with 8 samples.

Results

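The 10 lysosomal protease genes Ctsa, Ctsb, Ctsc, Ctsd, Ctse, Ctsf, Ctsh, Ctsl, Ctss and Ctsz were followed through mouse bone marrow cells of strain C57BL/6 that carry the leukaemia fusion MLL-AF10. They were taken by gene symbol as 10 of the 24421 rows of a count table, and the set leaves out cathepsin G of neutrophil granules and cathepsin K of osteoclasts. All 10 had enough counts to be tested, among 13722 tested genes. MATIP cells, which are Tip60 flox/flox with Cre-ERT2, received 4-OHT (4-hydroxytamoxifen, which switches Cre-ERT2 on) or the solvent ethanol (EtOH). MAflox cells, named in the series as MLL-AF10 flox cells, received the same agents. The labels do not say which sequence is floxed in MAflox cells or whether they carry Cre-ERT2. The dose was 100 nM 4-OHT for 4 days, and all 4 groups were cultured in methylcellulose supplied with GM-CSF, IL-3 and SCF. RNA was sequenced from 2 libraries of each group. The labels do not say whether these came from separate cultures or animals, or whether a line is 1 clone, so the p-values speak for the spread among these libraries, which may be technical.

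Cathepsins are made as inactive precursors, reach the lysosome mostly through mannose 6-phosphate receptors, and become active when the propeptide is removed in the acid compartment. The family is named by function and not by descent, so it mixes aspartic proteases (Ctsd, Ctse), papain-like cysteine proteases (Ctsb, Ctsc, Ctsf, Ctsh, Ctsl, Ctss, Ctsz) and a serine carboxypeptidase (Ctsa). In myeloid cells these enzymes digest engulfed protein, trim antigens and the class II invariant chain, and activate serine proteases stored in granules.

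The genes are scattered over the genome, and their positions are given here in mm10 from the GENCODE M21 annotation. Ctsd (ENSMUSG00000007891.16) spans chr7:142375911-142388038 on the minus strand, and Ctsc (ENSMUSG00000030560.17) lies far from it at chr7:88278085-88310888. Ctsa (ENSMUSG00000017760.16) spans chr2:164832873-164841032, and Ctsz (ENSMUSG00000016256.10) spans chr2:174427493-174439039 on the minus strand. Ctse (ENSMUSG00000004552.16) lies at chr1:131638306-131675505, Ctss (ENSMUSG00000038642.10) at chr3:95526786-95556403, and Ctsh (ENSMUSG00000032359.14) at chr9:90054152-90076089. Ctsl (ENSMUSG00000021477.9) lies at chr13:64359337-64370890 on the minus strand, Ctsb (ENSMUSG00000021939.8) at chr14:63122462-63145923 and Ctsf (ENSMUSG00000083282.3) at chr19:4855130-4860918. All 10 are annotated as protein-coding. Some exons overlap those of other genes, and how the authors' counting split such reads is not given in the sources used here. Ctsd shares 808 exon bases with Gm49369 on the same strand. Ctsl shares 1742 with the antisense gene Gm47123 and 395 with the processed pseudogene Gm49230. Ctsb shares 774 with Fdft1, and Ctsa shares 495 with Pltp and 324 with Neurl2, all on opposite strands.

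The start-site sequences of 4 members are shown because these genes span the range of responses described further on: Ctsd and Ctss rose strongly, Ctsa rose in both lines with no detectable difference between them, and Ctsz hardly moved. RefSeq (GRCm38.p6) gave windows of 300 bases, 250 before and 50 after the start site, for 7 of the 10 genes, and the 250 bases before the start are printed 5′ to 3′ on the gene's strand. Capitals mark CACGTG, the E-box core bound by the MiT/TFE factors that drive lysosomal genes. The windows printed lie at chr7:142387828-142388077 (minus strand), chr3:95526536-95526785 (plus), chr2:164833523-164833772 (plus, the downstream one of 2 Ctsa windows) and chr2:174439040-174439289 (minus).
Ctsd: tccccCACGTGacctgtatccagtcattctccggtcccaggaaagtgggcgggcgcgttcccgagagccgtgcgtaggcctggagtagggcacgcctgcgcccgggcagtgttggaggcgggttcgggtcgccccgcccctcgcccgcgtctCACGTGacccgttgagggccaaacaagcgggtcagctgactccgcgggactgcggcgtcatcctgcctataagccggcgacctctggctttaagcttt
Ctss: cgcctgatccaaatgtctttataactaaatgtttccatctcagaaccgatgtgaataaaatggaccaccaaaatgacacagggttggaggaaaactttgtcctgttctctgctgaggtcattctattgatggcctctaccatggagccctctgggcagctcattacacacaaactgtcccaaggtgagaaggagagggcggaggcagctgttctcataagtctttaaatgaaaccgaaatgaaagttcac
Ctsa: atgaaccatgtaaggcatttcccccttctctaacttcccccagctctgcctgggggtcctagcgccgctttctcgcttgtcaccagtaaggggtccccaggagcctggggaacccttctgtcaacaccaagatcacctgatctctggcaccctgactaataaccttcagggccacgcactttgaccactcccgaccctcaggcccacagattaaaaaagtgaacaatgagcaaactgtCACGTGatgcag
Ctsz: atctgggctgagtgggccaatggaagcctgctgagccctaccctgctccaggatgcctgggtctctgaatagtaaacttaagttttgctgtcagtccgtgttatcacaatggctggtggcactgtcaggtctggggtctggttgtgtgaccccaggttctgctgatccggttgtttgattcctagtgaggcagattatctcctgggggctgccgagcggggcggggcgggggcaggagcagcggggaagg
Searched on both strands of the whole windows, CACGTG was found in 4 of the 8 windows, which belong to 4 of the 7 genes, against 7.15% of all 32851 RefSeq windows of this length and 8.09% of their 27025 genes. It lay at -245 and -98 from the start in Ctsd, at -12 and 6 in the downstream window of Ctsa, at -79 in Ctsf and at -236 in Ctsl. The Ctsl window, chr13:64370471-64370770, lies wholly inside the annotated gene, which on the minus strand begins at 64370890. The other Ctsa window, chr2:164832622-164832921 at the start of the annotated gene, held none of the motifs searched. The longer form GTCACGTG, which contains CACGTG, was found in Ctsa and Ctsd and in 2.25% of all windows. GAGGAAGT, the core that the myeloid factor PU.1 prefers, was found at -151 in Ctsc and, across the start at -2, in Ctss, against 3.2% of all windows. TATAAA was found in the window of Ctss alone among the 7, against 13.6% of all windows. It lay at -233 on the opposite strand, as TTTATA in the sequence printed. Ctsz held none of the 4 motifs in this window. These matches are descriptions of letters, and no binding was measured.

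Library totals ran between 41101309 and 57312490 counts. Kat5, the gene of TIP60, checked the labels: it had 8.11 and 8.32 CPM (counts relative to the library total, scaled by trimmed mean of M-values) in MATIP 4-OHT libraries, against 41.1 and 41.2 CPM in MATIP EtOH libraries. In MAflox cells Kat5 had 57.5 and 62.5 CPM with 4-OHT, against 43.7 and 41.2 CPM with EtOH. Bulk libraries cannot tell a change in the number of cells of a type apart from a change of RNA per cell. Marker genes of several cell types moved between the groups alongside the cathepsins. The summed level of 14 monocyte and macrophage markers was 1708 to 1729 CPM in MATIP 4-OHT, against 154 to 169 CPM in MATIP EtOH. In MAflox it was 343 to 380 CPM with 4-OHT, against 225 to 244 CPM with EtOH. The macrophage sum was thus highest in MATIP 4-OHT libraries. Of these markers, C1qa had 0 counts in every library and C1qb in every library but those of MATIP 4-OHT. The sum of 10 mature neutrophil markers was 33612 to 37165 CPM in MATIP 4-OHT and 731 to 868 CPM in MATIP EtOH. In MAflox it was 49088 to 52496 CPM with 4-OHT and 204 to 209 CPM with EtOH, so the neutrophil sum was highest in MAflox 4-OHT libraries. The sum of 7 osteoclast markers was 1096 to 1108 CPM in MATIP 4-OHT and 12.1 to 13.4 CPM in MATIP EtOH, against 63.9 to 66 CPM in MAflox 4-OHT and 6.25 to 6.31 CPM in MAflox EtOH. The osteoclast marker Calcr had 0 counts in every library, and 4 of the 7 reached 1 CPM in both MATIP 4-OHT libraries. The osteoclast list includes Ctsk, and it shares Mmp9 with the mature neutrophil list. The sum of 8 progenitor markers was 322 to 328 CPM in MATIP 4-OHT and 727 to 736 CPM in MATIP EtOH, against 462 to 463 CPM in MAflox 4-OHT and 817 to 841 CPM in MAflox EtOH. The progenitor sum was lower with 4-OHT in both lines, but of its 8 genes only 3 fell and 1 rose in MATIP (median -0.02), against 6 that fell in MAflox (median -1.75). The part of these cell types in the cathepsin results was not tested, and the libraries do not show which cells carried the transcripts.

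In MATIP cells all 10 cathepsin genes rose with 4-OHT, by between 0.16 and 4.18 on the log2 scale, with Ctsd, Ctss and Ctsb in front. In MAflox cells 8 rose, Ctsz fell and Ctse did not pass the test. The question behind these comparisons is how the response of cells that lose Kat5 differs from that of MAflox cells, and 7 of the 10 genes rose more in MATIP than in MAflox cells. These calls come from the edgeR quasi-likelihood test over all 13722 genes, with Benjamini-Hochberg adjustment at 0.05. They stand against a very broad background: 37.5% of all tested genes were called higher in MATIP cells, and 76.1% were called in either direction. In MAflox cells 33.1% were called higher and 32.1% lower, and 65.2% in either direction. For the difference between the responses, 28.3% were called higher in MATIP and 61.9% in either direction. The median log2 fold change of the 10 genes was 2.50 in MATIP and 1.46 in MAflox cells, where that of all tested genes was 0.0039 in MATIP and 0.02 in MAflox cells. In MATIP cells 8 of the 10 were called at least 2-fold higher, as were 22.6% of all tested genes.

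**Figure D1:**
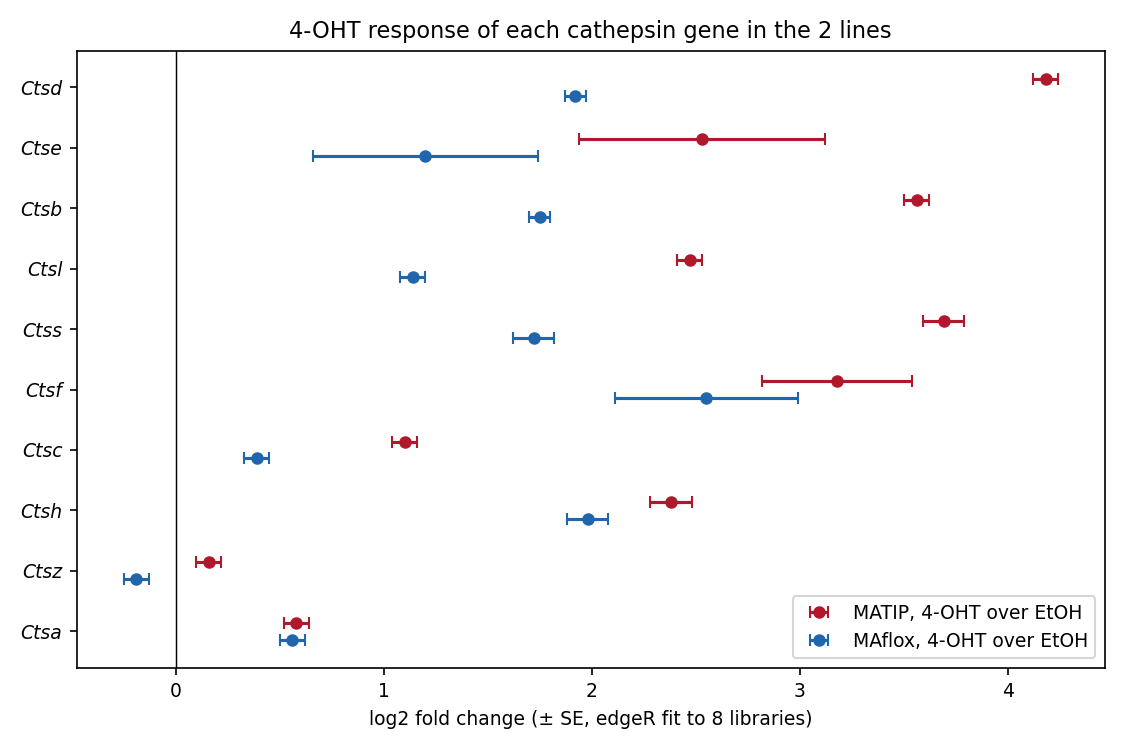
Log2 fold change of each cathepsin gene with 4-OHT over EtOH (x axis), with MATIP cells in red above MAflox cells in blue; bars are the standard error of the edgeR fit to 8 libraries. In MATIP the values run between 0.16 (Ctsz) and 4.18 (Ctsd), and in MAflox between -0.19 (Ctsz) and 2.55 (Ctsf); Ctsa lies at 0.58 in MATIP and 0.56 in MAflox.

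Of the aspartic proteases, Ctsd, the main aspartic endopeptidase of the lysosome, had the largest log2 fold change of the 10 in MATIP cells. It had 12863 and 13422 CPM in MATIP 4-OHT libraries, against 713 and 735 CPM in MATIP EtOH libraries. In MAflox it had 1958 and 1871 CPM with 4-OHT, against 503 and 510 CPM with EtOH. The 4 groups did not overlap, and both MATIP 4-OHT libraries stood far above the other 6. The log2 fold change was 4.18 ± 0.06 (SE; adjusted p = 5.38e-21), or 18.2-fold, in MATIP and 1.92 ± 0.05 (adjusted p = 3.38e-16), or 3.78-fold, in MAflox. The responses differed by 2.26 ± 0.07 (adjusted p = 2.92e-14). Per kilobase of exon, Ctsd ranked 6 in both MATIP 4-OHT libraries among 23334 genes with a length, against 126 and 118 in MATIP EtOH. In MAflox its rank was 53 and 55 with 4-OHT, against 178 and 174 with EtOH. Ctse, an endosomal aspartic protease of immune and gut cells, was barely detected. It had 34 and 62 counts (0.806 and 1.22 CPM) in MATIP 4-OHT, against 12 and 6 counts (0.261 and 0.1 CPM) in MATIP EtOH. In MAflox it had 0.909 and 0.76 CPM with 4-OHT, against 0.363 and 0.361 CPM with EtOH. The 4-OHT libraries lay above the EtOH libraries in each line, while the 4-OHT libraries of the 2 lines overlapped. Ctse rose in MATIP by 2.53 ± 0.59 (adjusted p = 0.000707) and did not pass the test in MAflox, at 1.20 ± 0.54 (adjusted p = 0.0612). The difference between these responses was 1.33 ± 0.81 (adjusted p = 0.163), with a 95% interval of -0.37 to 3.03, so it was not detectable at these counts.

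Among the cysteine endopeptidases, Ctsb, Ctss and Ctsl rose in both lines and more in MATIP cells. Ctsb, which cleaves both within proteins and dipeptides at their ends, had 2916 and 2991 CPM in MATIP 4-OHT, against 245 and 255 CPM in MATIP EtOH. It had 555 and 556 CPM in MAflox 4-OHT, against 163 and 168 CPM in MAflox EtOH. The groups were ordered as for Ctsd, with no overlap. The rise was 3.56 ± 0.06, or 11.8-fold, in MATIP (adjusted p = 3.58e-20) and 1.75 ± 0.05, or 3.36-fold, in MAflox (adjusted p = 1.56e-15), a difference of 1.81 ± 0.07 (adjusted p = 3.57e-13). Ctss, which keeps its activity at neutral pH and trims the invariant chain in antigen-presenting cells, had 407 and 434 CPM in MATIP 4-OHT and 36.4 and 29.2 CPM in MATIP EtOH, against 82.8 and 68 CPM in MAflox 4-OHT and 23.7 and 22.1 CPM in MAflox EtOH. No group overlapped another. Ctss rose by 3.69 ± 0.10 in MATIP (adjusted p = 5.37e-17) and by 1.72 ± 0.10 in MAflox (adjusted p = 1.06e-11), which differed by 1.97 ± 0.13 (adjusted p = 2.86e-10). Ctsl, a broad lysosomal endopeptidase, had 304 and 326 CPM in MATIP 4-OHT and 56.4 and 57.4 CPM in MATIP EtOH. In MAflox it had 95.5 and 91 CPM with 4-OHT and 42.5 and 42.4 CPM with EtOH. The order of the groups was the same, without overlap. Ctsl rose by 2.47 ± 0.06 in MATIP (adjusted p = 1.68e-17) and by 1.14 ± 0.06 in MAflox (adjusted p = 5.04e-12), a difference of 1.33 ± 0.08 (adjusted p = 1.15e-10). Ctsl shares exon bases with the antisense and pseudogene records named above, so part of its counts cannot be assigned with certainty.

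Ctsf, a lysosomal cysteine protease that can also cut the invariant chain in macrophages, was close to the limit of detection. Its counts were 182 and 259 in MATIP 4-OHT (4.31 and 5.11 CPM), against 22 and 33 in MATIP EtOH (0.478 and 0.553 CPM). In MAflox they were 77 and 50 with 4-OHT (1.63 and 1.15 CPM), against 5 and 18 with EtOH (0.114 and 0.342 CPM). No group overlapped its neighbour in level. Ctsf rose by 3.18 ± 0.36 in MATIP (adjusted p = 1.67e-07) and by 2.55 ± 0.44 in MAflox (adjusted p = 3.89e-05). The responses differed by 0.63 ± 0.60 (adjusted p = 0.382), with a 95% interval of -0.64 to 1.89. This gene leaned on single libraries: without MAflox EtOH replicate 2 its rise in MAflox was 3.59, and without MAflox EtOH replicate 1 it was 2.02.

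The cysteine exopeptidases did not move as 1 group. Ctsc, the dipeptidyl peptidase that activates the serine proteases of granules, had 290 and 288 CPM in MATIP 4-OHT and 133 and 137 CPM in MATIP EtOH. In MAflox it had 184 CPM in both 4-OHT libraries, against 135 and 145 CPM with EtOH. The EtOH libraries of the lines overlapped, and the 4-OHT libraries did not. Ctsc rose 2.14-fold in MATIP (log2 1.10 ± 0.06, adjusted p = 1.03e-12) and 1.31-fold in MAflox (0.39 ± 0.06, adjusted p = 4.65e-06), with a difference of 0.71 ± 0.08 (adjusted p = 2.6e-07). Ctsh, an aminopeptidase, rose 5.21-fold in MATIP and 3.95-fold in MAflox cells. It had 54.4 and 60.4 CPM in MATIP 4-OHT and 11.9 and 10.2 CPM in MATIP EtOH, against 44.6 and 49 CPM in MAflox 4-OHT and 10.9 and 12.7 CPM in MAflox EtOH. The 4-OHT libraries of both lines lay well above all EtOH libraries, and the EtOH libraries of the lines overlapped. The rise was 2.38 ± 0.10 in MATIP (adjusted p = 5.97e-14) and 1.98 ± 0.10 in MAflox (adjusted p = 2.23e-12). The difference of 0.40 ± 0.14 (adjusted p = 0.0192) missed the threshold when any of 4 libraries was left out: 0.36 without MAflox 4-OHT replicate 1 (adjusted p = 0.0623), 0.27 without MAflox EtOH replicate 2 (adjusted p = 0.146), 0.28 without MATIP EtOH replicate 2 (adjusted p = 0.114) and 0.34 without MATIP 4-OHT replicate 2 (adjusted p = 0.077). Over all alternatives run for this difference the adjusted p ran between 0.00212 and 0.146.

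Ctsz, a carboxypeptidase also called cathepsin X, was the member that hardly responded. It had 530 and 559 CPM in MATIP 4-OHT and 505 and 466 CPM in MATIP EtOH, against 358 and 329 CPM in MAflox 4-OHT and 406 and 378 CPM in MAflox EtOH. Both MATIP groups lay above both MAflox groups, and within a line the libraries of the agents did not overlap. Ctsz rose by 0.16 ± 0.06 in MATIP (adjusted p = 0.0216) and fell in MAflox, at -0.19 ± 0.06 (adjusted p = 0.0119). Each of these calls was lost when 1 of 2 libraries was left out: in MATIP, 0.10 without EtOH replicate 2 (adjusted p = 0.235) and 0.16 without 4-OHT replicate 2 (adjusted p = 0.0776), and in MAflox, -0.14 without EtOH replicate 1 (adjusted p = 0.15) and -0.11 without 4-OHT replicate 2 (adjusted p = 0.22). Over all alternatives the adjusted p ran between 0.000385 and 0.235 in MATIP and between 2.62e-05 and 0.22 in MAflox. With the trend of length and GC content removed, the change was 0.22 in MATIP and -0.38 in MAflox. The difference between the lines' responses, 0.35 ± 0.09 (adjusted p = 0.00171), passed the test in every alternative run and was 0.67 with that trend removed.

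Ctsa, the serine carboxypeptidase also known as protective protein, rose in both lines. It had 274 and 285 CPM in MATIP 4-OHT and 186 and 188 CPM in MATIP EtOH. It had 240 and 216 CPM in MAflox 4-OHT and 154 and 156 CPM in MAflox EtOH. The 4 groups did not overlap. The rise was 0.58 ± 0.06 in MATIP (adjusted p = 2.97e-08) and 0.56 ± 0.06 in MAflox (adjusted p = 8.41e-08). The difference was 0.02 ± 0.08 (adjusted p = 0.85), with a 95% interval of -0.15 to 0.19 on the log2 scale, which bounds a difference but does not show that the lines respond alike.

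**Figure D2:**
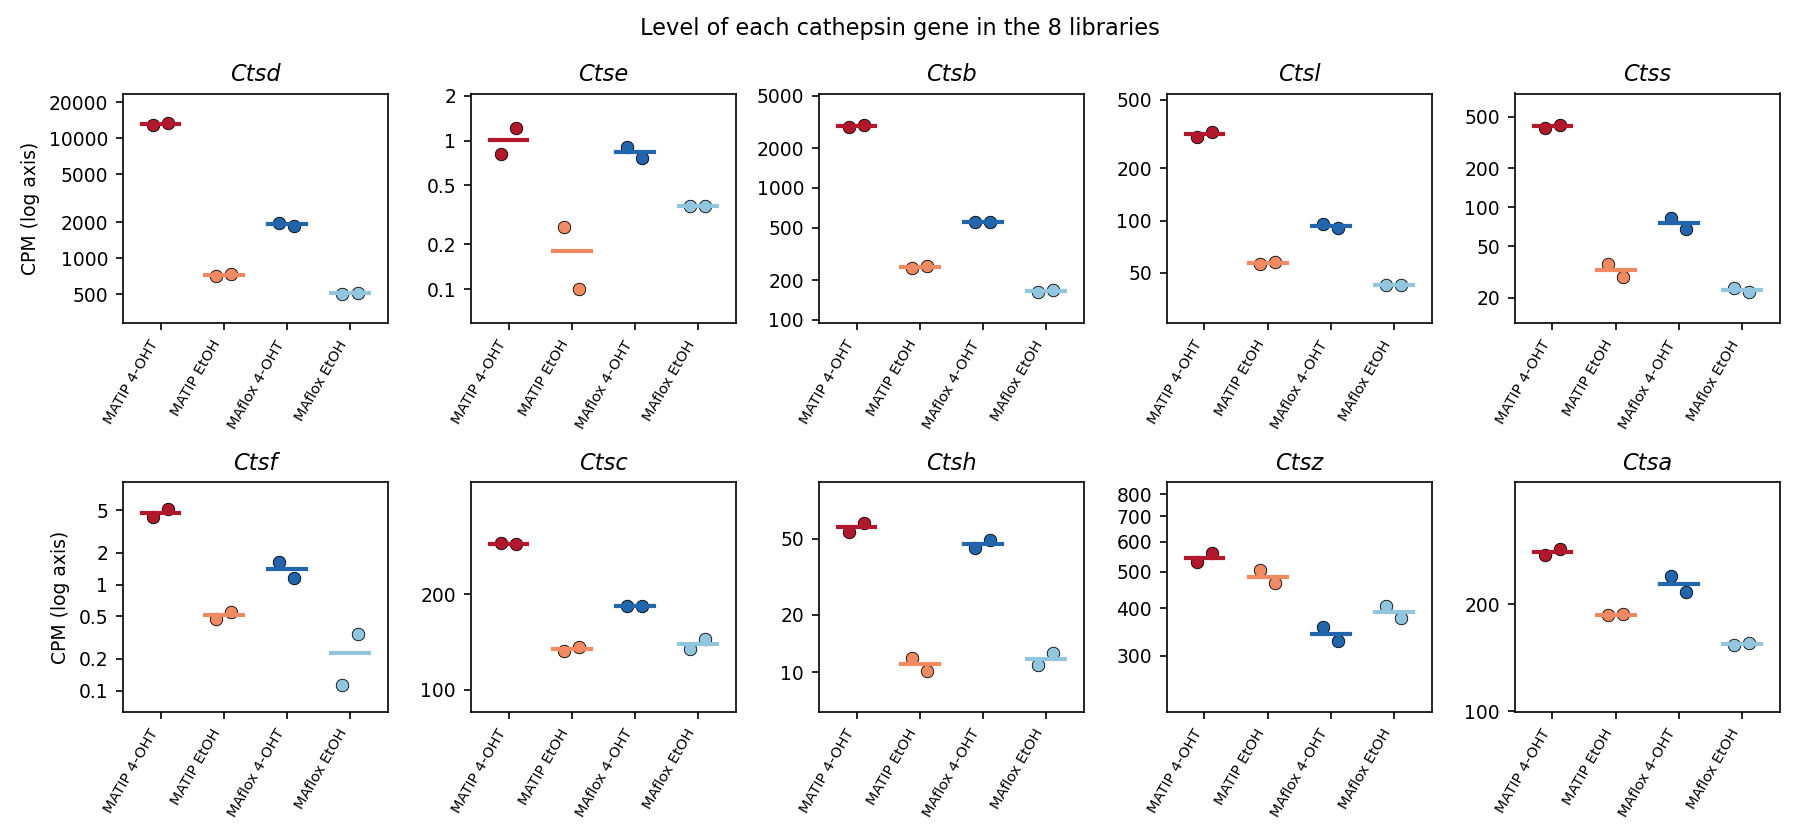
CPM of each cathepsin gene in the 8 libraries (log axes, 1 scale per panel), with MATIP 4-OHT, MATIP EtOH, MAflox 4-OHT and MAflox EtOH side by side in each panel; points are the 2 libraries and the bar is their mean. Both MATIP 4-OHT points are the highest of the 8 in every panel but Ctse, as they were for 30.3% of all tested genes, and Ctsz alone has its lowest points in MAflox 4-OHT.

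Summed over the 10 genes, the level was 17645 and 18372 CPM in MATIP 4-OHT libraries, against 1887 and 1879 CPM in MATIP EtOH libraries. In MAflox the sum was 3521 and 3366 CPM with 4-OHT, against 1438 and 1435 CPM with EtOH. These genes thus took 1.76% and 1.84% of the scaled counts in MATIP 4-OHT, and at most 0.352% in any other library. The makeup of the sum moved too, counted per kilobase of exon so that genes can be set beside each other. Ctsd made up 80.6% of it in both MATIP 4-OHT libraries, against 38.1% and 40.4% in MATIP EtOH. In MAflox its share was 62.1% and 62.7% with 4-OHT, against 35.4% and 36.7% with EtOH. The share of Ctsz moved the other way, at 5.42% and 5.47% in MATIP 4-OHT and 44.1% and 41.8% in MATIP EtOH, against 18.5% and 18% in MAflox 4-OHT and 46.6% and 44.4% in MAflox EtOH. With EtOH, Ctsz was therefore the gene with the highest level per kilobase of the 10 in every library, and with 4-OHT it was Ctsd. The order with EtOH rests on the exon lengths used, since Ctsd was above Ctsz in CPM in every EtOH library. The CPM were 713 and 735 against 505 and 466 in MATIP, and 503 and 510 against 406 and 378 in MAflox. Ctsb held 7.1% and 6.98% of the sum in MATIP 4-OHT and 5.09% and 5.43% in MATIP EtOH, against 6.83% and 7.24% in MAflox 4-OHT and 4.45% and 4.7% in MAflox EtOH. Ctse and Ctsf each held at most 0.024% of the sum in any library.

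**Figure D3:**
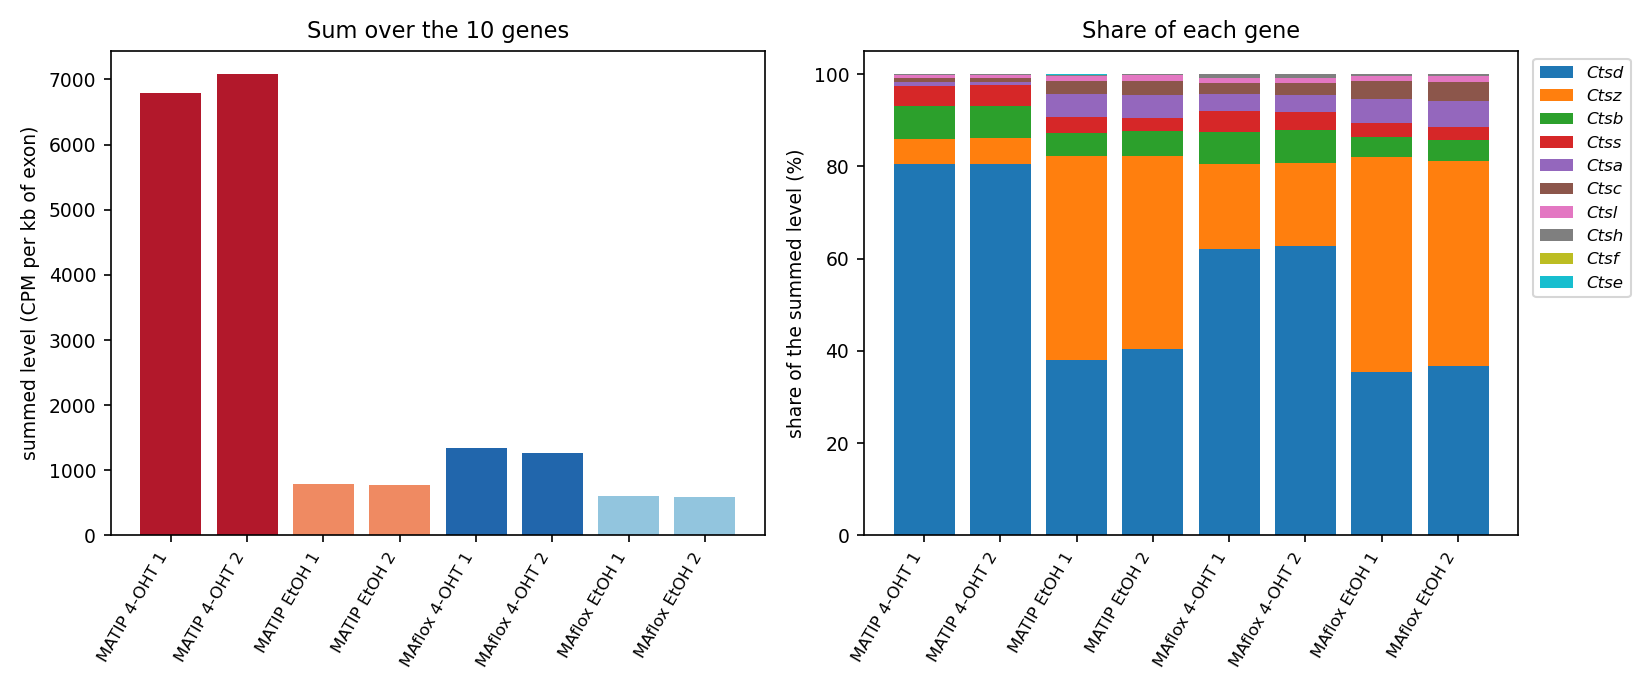
Left, the summed level of the 10 cathepsin genes in CPM per kilobase of exon in each library; right, the share of that sum held by each gene in percent. Ctsd fills 80.6% of both MATIP 4-OHT bars, and in the EtOH libraries Ctsz holds between 41.8% and 46.6%.

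The lines were also compared with each other under each agent. With 4-OHT, 9 of the 10 genes were higher in MATIP than in MAflox cells and Ctse did not pass the test, where 38.1% of all tested genes were called higher and 75.5% in either direction. The log2 difference was 2.78 ± 0.06 for Ctsd, 2.48 ± 0.09 for Ctss, 2.41 ± 0.05 for Ctsb, 1.76 ± 0.06 for Ctsl and 1.76 ± 0.33 for Ctsf. It was between 0.29 and 0.66 for Ctsz, Ctsc, Ctsh and Ctsa, and 0.29 ± 0.50 for Ctse (adjusted p = 0.614). The Ctsa call depends on whether the trend of length and GC content is removed from the fold changes, since removing it gave -0.01 (adjusted p = 0.911, over a range of 1e-07 to 0.911). The Ctsh call, 0.30 ± 0.09, was lost without MAflox 4-OHT replicate 1 (0.23, adjusted p = 0.0864) or MATIP 4-OHT replicate 2 (0.21, adjusted p = 0.115), over a range of adjusted p between 0.000586 and 0.115. With EtOH, where no 4-OHT was given, 6 genes were already higher in MATIP than in MAflox cells, where 20.3% of all tested genes were called higher and 32% in either direction. These were Ctsb at 0.60 ± 0.05, Ctsd at 0.52 ± 0.05, Ctss at 0.51 ± 0.10, Ctsl at 0.42 ± 0.06, Ctsz at 0.31 ± 0.06 and Ctsa at 0.27 ± 0.06. Ctsc and Ctsh lay near 0 at -0.05 ± 0.06 and -0.10 ± 0.11, and Ctsf at 1.13 ± 0.48 (adjusted p = 0.0826) and Ctse at -1.04 ± 0.63 (adjusted p = 0.233) did not pass the test. Without MAflox EtOH replicate 2 the value of Ctsf was 2.17 (adjusted p = 0.0192, over a range of 0.0192 to 0.451).

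Ordered by mean level, Ctsa, Ctsb, Ctsd, Ctsf, Ctsl and Ctss shared 1 sequence of groups, MAflox EtOH, MATIP EtOH, MAflox 4-OHT and MATIP 4-OHT, low to high, with no overlap between neighbours. Of all tested genes 5.17% had this order without overlap, and 37.8% had some order of the groups without overlap, as 7 of the 10 cathepsin genes did. Ctsz had its own order, MAflox 4-OHT, MAflox EtOH, MATIP EtOH and MATIP 4-OHT, also without overlap. In Ctsc and Ctsh the 2 EtOH groups overlapped and could not be ordered, and in Ctse the same held for the 2 4-OHT groups. Across the 8 libraries, Pearson's r of log2 CPM with Ctsd was 0.999 for Ctsb and Ctsl, 0.998 for Ctss and 0.988 for Ctsc. It was 0.952 for Ctsf, 0.949 for Ctsa, 0.877 for Ctsh, 0.746 for Ctse and 0.501 for Ctsz. These r values are descriptions over 8 libraries that form 4 groups, and they share the spread between those groups. The most similar genes were sought by the same measure, with predicted genes left out. Those most like Ctsd were Tlr2 (0.9994), Ctsb (0.9994) and Sgk1 (0.9988), and those most like Ctsb were Sgk1, Ctsd and Tdrd7 (0.9994 each). Those most like Ctsz were Rab11b (0.9937), Tmem215 (0.9925) and Dynll2 (0.9916).

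Other genes of the pathway were read from lists chosen with earlier results of these data known. Most genes named from a list are the 2 called in the response difference with the smallest p. They were thus picked for how they differed between the lines, and they do not stand for their list. The list counts below stand against 37.5% of all tested genes called higher in MATIP cells and 76.1% in either direction. In MAflox cells 33.1% were called higher and 32.1% lower. Of 13 other cathepsins, 4 were tested, and 3 rose and 1 fell in MATIP cells, against 2 that rose and 1 that fell in MAflox cells. Ctsg, the granule protease, had 615 and 659 CPM in MATIP 4-OHT and 1907 and 1895 CPM in MATIP EtOH, against 2080 and 2144 CPM in MAflox 4-OHT and 2406 and 2351 CPM in MAflox EtOH. Ctsk, the osteoclast collagenase, had 256 and 281 CPM in MATIP 4-OHT and 0.913 and 0.486 CPM in MATIP EtOH, against 3.91 and 3.73 CPM in MAflox 4-OHT and 0.454 and 0.494 CPM in MAflox EtOH. So the granule and the osteoclast cathepsin moved in opposite directions in MATIP cells, by -1.58 ± 0.05 (adjusted p = 3e-15) and 8.63 ± 0.13 (adjusted p = 1.31e-20).

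Of 16 tested inhibitors of cathepsins and related proteases (cystatins, stefins, serpins), 15 rose and 1 fell in MATIP cells, and 14 rose in MAflox cells, with medians of 3.05 in MATIP and 2.21 in MAflox. For the difference between the responses, 8 inhibitors were called lower in MATIP and 5 higher, where 33.6% of all tested genes were called lower and 28.3% higher. Those called lower include the stefin A genes Stfa1, Stfa2, Stfa2l1, Stfa3, BC100530 and Gm5483 beside Cst7 and Serpinb1a. Cst7, a cystatin that inhibits Ctsc, fell in MATIP by 1.70 on the log2 scale (SE 0.07), with 56.9 and 63.7 CPM with 4-OHT against 196 and 197 CPM with EtOH. In MAflox it rose by 0.39 ± 0.06, to 158 and 144 CPM with 4-OHT against 117 and 113 CPM with EtOH. Serpina3g rose in MATIP by 1.24 ± 0.07 and was at -0.12 ± 0.07 in MAflox (adjusted p = 0.15). These stefin A genes are near-identical copies, so their counts are uncertain one by one, and the mature neutrophil marker sum given above moved with them.

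The proteases that Ctsc activates did not follow Ctsc in MATIP cells. Of 6 tested, 4 fell there and the other two, Gzmb and Cma1, had 0 counts in MATIP libraries, against 4 that rose and 1 that fell in MAflox cells. Elane, neutrophil elastase, had 1539 and 1658 CPM in MATIP 4-OHT and 3639 and 3943 CPM in MATIP EtOH, a log2 fold change of -1.25 ± 0.06. In MAflox it had 4240 and 4163 CPM with 4-OHT and 1852 and 1795 CPM with EtOH, a rise of 1.20 ± 0.06. Prss57, another granule serine protease, was at -1.96 ± 0.08 in MATIP and 1.20 ± 0.07 in MAflox. The responses differed by -2.45 ± 0.08 for Elane (adjusted p = 2.95e-14) and by -3.16 ± 0.11 for Prss57 (adjusted p = 7.55e-14), where that of Ctsc differed by 0.71.

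The 3 listed partners of Ctsa in its lysosomal complex, Neu1, Glb1 and Galns, rose in both lines. Neu1, the sialidase, had 194 and 199 CPM in MATIP 4-OHT and 151 and 148 CPM in MATIP EtOH, against 212 and 210 CPM in MAflox 4-OHT and 66.4 and 62.6 CPM in MAflox EtOH. Its rise was 0.40 ± 0.05 in MATIP and 1.71 ± 0.06 in MAflox, a difference of -1.31 ± 0.08 (adjusted p = 5.66e-11). Glb1, the beta-galactosidase, rose by 1.20 ± 0.08 in MATIP and by 0.35 ± 0.08 in MAflox, a difference of 0.85 ± 0.11 (adjusted p = 2.21e-06). Galns, a sulphatase, rose by 0.81 ± 0.06 in MATIP and by 0.76 ± 0.07 in MAflox, and its difference of 0.05 ± 0.09 (adjusted p = 0.638) did not pass the test. Of the 3 partners 1 thus rose more in MATIP, 1 rose less and 1 did not pass the test of the difference, as Ctsa did not at 0.02 ± 0.08.

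Of 18 genes of lysosomal delivery and cathepsin maturation, 11 rose and 6 fell in each line, with medians of 0.37 in both. These were not all the same genes. Igf2r rose by 0.22 in MATIP and was at -0.66 in MAflox, while Vps35 was at -0.42 in MATIP and rose by 0.45 in MAflox. For the difference between the responses, 11 were called higher in MATIP and 5 lower. Of all tested genes 28.3% were called higher there and 33.6% lower. Psap, the precursor of saposins and a binding partner of the Ctsd precursor, stood out with 14882 and 15148 CPM in MATIP 4-OHT and 620 and 601 CPM in MATIP EtOH, against 1259 and 1075 CPM in MAflox 4-OHT and 483 and 494 CPM in MAflox EtOH. It rose by 4.62 ± 0.07 in MATIP and 1.26 ± 0.06 in MAflox. Lrp1, an endocytic receptor that also takes up prosaposin and cathepsin D, rose by 3.17 ± 0.11 in MATIP and was at -0.28 ± 0.12 in MAflox. Of 35 tested lysosomal hydrolases outside the cathepsins, 28 rose and 6 fell in MATIP cells, and 22 rose and 9 fell in MAflox cells, with medians of 0.72 in MATIP and 0.31 in MAflox. Their response difference was called higher in MATIP for 19 and lower for 10. Hgsnat, which acts in the degradation of heparan sulphate, rose by 3.69 ± 0.07 in MATIP and by 0.16 ± 0.06 in MAflox. All 16 lysosomal membrane genes rose in MATIP cells, against 11 that rose and 1 that fell in MAflox cells, with medians of 1.11 in MATIP and 0.45 in MAflox. Their response difference was called higher in MATIP for 10 and lower for 2. Cd68, which is also in the macrophage marker list, rose by 3.94 ± 0.08 in MATIP and 1.10 ± 0.08 in MAflox, and the cholesterol transporter Npc1 was at 2.09 ± 0.06 in MATIP and -0.15 ± 0.06 in MAflox.

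Of 8 class II pathway genes, where Ctss, Ctsl and Ctsf act on the invariant chain, 7 rose and 1 fell in MATIP cells, and 6 rose and 1 fell in MAflox cells. Their response difference was called higher in MATIP for 4 and lower for 1, where 28.3% of all tested genes were called higher and 33.6% lower. Cd74, the invariant chain itself, had 101 and 109 CPM in MATIP 4-OHT and 6.81 and 6.08 CPM in MATIP EtOH, against 20.1 and 18.4 CPM in MAflox 4-OHT and 4.75 and 5.26 CPM in MAflox EtOH. It rose by 4.03 ± 0.10 in MATIP and by 1.94 ± 0.10 in MAflox, a difference of 2.09 ± 0.14 (adjusted p = 2.5e-10). H2-Eb1, a class II beta chain, was barely detected, at 4.6 and 5.9 CPM in MATIP 4-OHT and under 1 CPM in the other 6 libraries. Of 8 transcription factors of the MiT/TFE and myeloid groups, 7 rose and 1 fell in MATIP cells, and 5 rose and 2 fell in MAflox cells. Their response difference was called higher in MATIP for 5 and lower for 2. Tfe3, a regulator of lysosomal genes, rose by 0.91 ± 0.08 in MATIP and fell in MAflox, at -0.62 ± 0.08. The other MiT/TFE factors moved otherwise. Tfeb rose by 1.54 ± 0.10 in MATIP and 0.86 ± 0.11 in MAflox, and Mitf by 1.79 ± 0.11 in MATIP and 0.92 ± 0.12 in MAflox. Tfec fell in MATIP, at -0.30 ± 0.06, and rose in MAflox by 0.57 ± 0.06. Irf8, a monocyte factor, rose by 0.30 ± 0.08 in MATIP and fell in MAflox, at -1.06 ± 0.08.

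**Figure D4:**
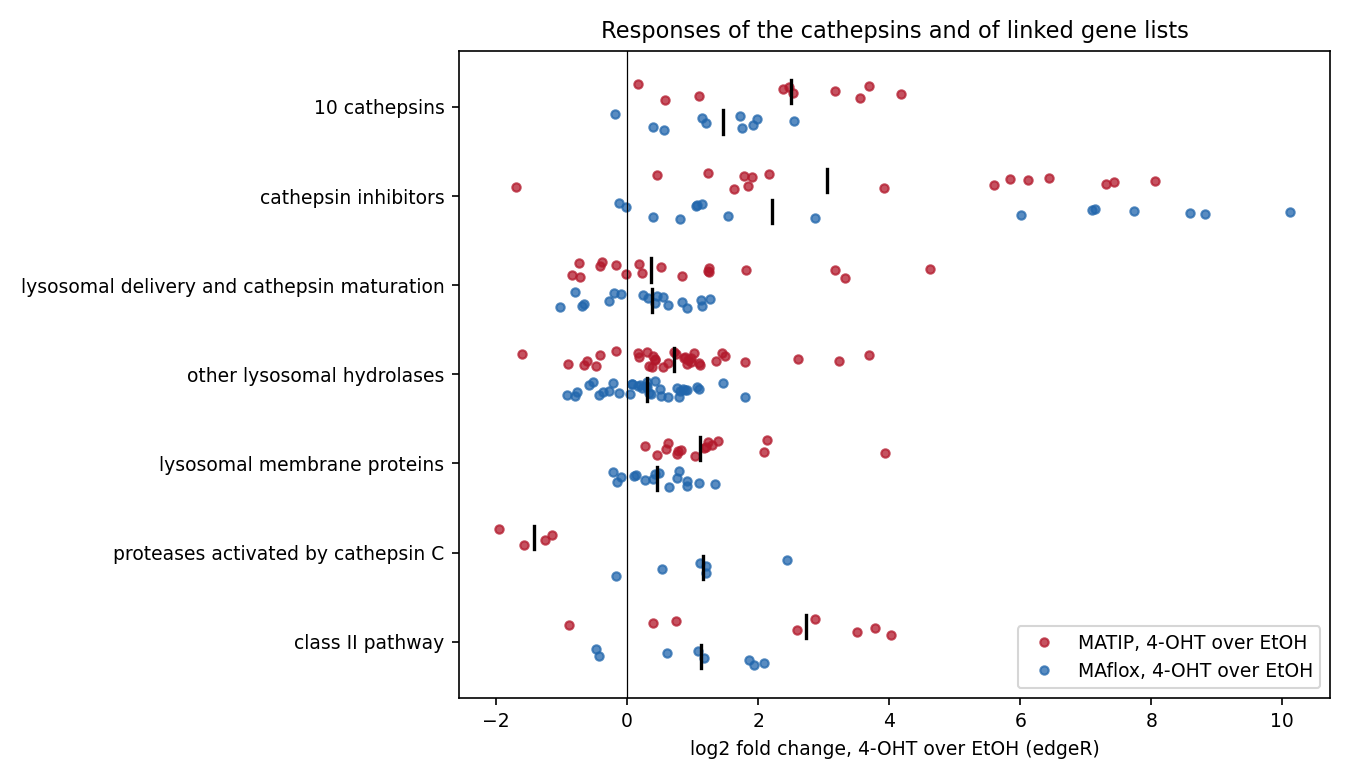
Log2 fold change with 4-OHT over EtOH (x axis) of each tested gene in the cathepsin set and in 6 linked lists, with MATIP in red above MAflox in blue; black ticks are medians, and genes with 0 counts in either group of a line are left out. The cathepsin medians are 2.50 in MATIP and 1.46 in MAflox, and the 4 proteases activated by cathepsin C that are drawn for MATIP all lie below 0.

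The authors' deposited table gives a log2 fold change and an adjusted p for 4-OHT against ethanol in each line. It lists all 10 genes under 0.05 in MATIP and 9 in MAflox, with Ctse at an adjusted p of 0.125. The share of all genes under 0.05 in the authors' values was not counted. In the edgeR fit given here, 76.1% of all tested genes were called in either direction in MATIP and 65.2% in MAflox. Leaving out the low-count genes Ctse and Ctsf, the values in the authors' deposited table lay within 0.04 of those given here in MATIP and within 0.01 in MAflox. Over all 10 genes the largest gap was 0.28 in MATIP and 0.54 in MAflox. The authors gave 2.25 for Ctse in MATIP, against 2.53 here, and 2.01 for Ctsf in MAflox, against 2.55 here.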

How the data were processed

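RNA from 8 libraries was analysed, 2 in each of 4 groups, grouped by sample title. The deposited counts are whole numbers of reads for each gene symbol in each library, before any normalization. The submitters' processing notes name Trimmomatic 0.38.0, DESeq2, featureCounts 1.6.4 and HISAT2 2.1.0, with mm10 as build. Which annotation and strand setting were used, and how reads with several positions were counted, is not stated in the labels. Of the columns in that file, 23 are empty. Per the file headers a second table holds the authors' log2 fold changes and adjusted p-values for each line.

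The counts were fitted with edgeR 4.0.16 (R 4.3.3): TMM scaling, filterByExpr (minimum count 10, minimum total 15), 1 coefficient per group and the quasi-likelihood test. The fit had 4 residual degrees of freedom, a prior of 14.3 and a common biological coefficient of variation of 5.98%. P-values were adjusted by Benjamini-Hochberg over 13722 genes and called at 0.05. The script was tested on simulated data. CPM are TMM-scaled; levels per kilobase use the union of GENCODE M21 exons. Log2 CPM for correlations used a prior count of 2. Library totals ran between 41101309 and 57312490 counts, so genes under about 1 CPM rest on few reads.

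Alternatives were size factors of the DESeq2 kind within edgeR, the DESeq2 1.42.0 Wald test, no filter on low counts, only the groups compared, a replicate block, each library left out in turn, and removal of a loess trend (span 0.5) of length and GC content. The members and the 9 pathway and 9 marker lists were chosen with earlier results of these data known. Named genes are all members, Kat5 and, per pathway list, the 2 genes called in the response difference with the smallest p. Further list genes are named where they show how the rest of a list moved. Also named are, for the 3 members with the highest mean CPM, the 3 most correlated genes. This rule left out predicted genes (named Gm with digits, LOC or ending in Rik). Some genes that this rule or the lists hold are not reported here.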

Additional observations from a re-analysis of the deposited data

Results flagged for a closer look

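The 4-OHT response differed between the lines for 7 of the 10 cathepsin genes, by the edgeR test of the difference itself (MATIP minus MAflox, log2), where 61.9% of all tested genes were called in either direction and 28.3% higher in MATIP. The difference was 2.26 for Ctsd, 1.97 for Ctss, 1.81 for Ctsb, 1.33 for Ctsl and 0.71 for Ctsc. It was smaller, at 0.40 for Ctsh, a call lost in each of 4 fits that left out 1 library (adjusted p = 0.0623 to 0.146), and 0.35 for Ctsz. Ctsz moved in opposite directions in the lines, and each of these changes lost its call when either of 2 libraries was left out, while the difference kept its call in all 8 such fits. In all 7 the MATIP response was the higher one. The macrophage and osteoclast marker sums were also highest in MATIP 4-OHT libraries, and the mature neutrophil sum in MAflox 4-OHT libraries. The osteoclast and neutrophil lists share Mmp9, and the part of these sums in the differences was not tested.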

How the results depend on the processing

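No count of called cathepsin genes moved by more than 1.5 times under any alternative. Fits that left out 1 library kept only 1 library in a group, and the calls lost there are named by gene above. The other alternatives called 10 cathepsin genes in MATIP, 9 to 10 in MAflox and 7 for the response difference. Between the lines they called 8 to 9 in 4-OHT and 6 to 7 in EtOH. Over all genes they called 9933 to 10504 in MATIP, 8467 to 9000 in MAflox and 7612 to 8527 for the difference. Between the lines they called 9578 to 10503 of all genes in 4-OHT and 3944 to 4525 in EtOH. Of 690 values of single genes under alternatives, 669 kept their direction and their side of the threshold, 10 lost the call, 3 gained it and 8 changed sign, and the cause was not tested. All sign changes were in values that had not passed the test, except Ctsa between the lines in 4-OHT, which had been called at 0.29. For the response difference, Ctsa gave -0.15 with the length and GC trend removed, -0.04 without MAflox 4-OHT replicate 2 and -0.00067 without MAflox EtOH replicate 2, and Ctsf gave -0.42 without that last library; leaving out each library gave -0.04 to 0.13 for Ctsa and -0.42 to 1.15 for Ctsf. Between the lines in 4-OHT, Ctsa gave -0.01 with the trend removed and Ctse -0.06 without MATIP 4-OHT replicate 2, in a range of -0.06 to 0.55 over libraries left out. In EtOH, Ctsh gave 0.02 without MAflox EtOH replicate 2 and 0.01 without MATIP EtOH replicate 2, in a range of -0.21 to 0.02. Ctse in MAflox passed the test when only the MAflox groups were fitted (1.22, adjusted p = 0.0311, over a range of 0.0311 to 0.185), and Ctsf in EtOH passed it with no filter on low counts (1.10, adjusted p = 0.0455, over a range of 0.0192 to 0.451). Scaling by DESeq2-type size factors in edgeR put the median of all genes at 0.08 in MATIP and 0.02 in MAflox, and changed no call of a cathepsin gene.

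Deviations of same-numbered libraries were nearly uncorrelated, at -0.039 in MATIP and -0.002 in MAflox, so no shared deviation by replicate number was seen. This does not tell whether same-numbered libraries came from the same culture. A fit with the replicate number as a block called 10 cathepsin genes in MATIP, 9 in MAflox, 7 for the difference, 9 between the lines in 4-OHT and 6 in EtOH, as without it. Over all genes it called 10153 in MATIP, 8647 in MAflox and 8155 for the difference. With 2 libraries a group, the depth limits Ctse and Ctsf most.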

Other observations

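The other marker lists gave the following levels. The sum of 7 mast cell and basophil markers was 24.7 to 26.9 CPM in MATIP 4-OHT and 19.6 to 20.4 CPM in MATIP EtOH, against 50.2 to 55.2 CPM in MAflox 4-OHT and 34.5 to 36.3 CPM in MAflox EtOH. The sum of 6 eosinophil markers was 32.5 to 34.7 CPM in MATIP 4-OHT and 4.13 to 4.15 CPM in MATIP EtOH, against 51.6 to 78.6 CPM in MAflox 4-OHT and 7.68 to 8.89 CPM in MAflox EtOH. Dendritic cell markers summed to 2.56 to 3.55 CPM in MATIP 4-OHT and 1.83 to 2.7 CPM in MATIP EtOH, against 1.87 to 2.2 CPM in MAflox 4-OHT and 15.3 to 17.1 CPM in MAflox EtOH. Of these 7 markers only 1 reached 1 CPM in both MAflox EtOH libraries, and none did in MAflox 4-OHT. The list shares Flt3 with the progenitor list. The 6 lymphoid markers summed to at most 0.853 CPM in any library, and the 6 stromal markers to 5.97 to 7.49 CPM in MATIP 4-OHT and at most 2.18 CPM elsewhere.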
